A study of Mus musculus with 24 samples.

Results

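The 8 genes described here carry or relay the signals of the ovarian hormones and prolactin in the mammary gland: Esr1, Pgr, Greb1, Areg, Wnt4, Tnfsf11, Calca and Prl. They were chosen by name, and every probe of the array whose gene name equals one of them was used, which gave 16 of the 55681 probes and 8 of the 34797 gene names of the array. RNA came from whole mammary glands of female mice that had been exposed at 8 to 9 weeks of age, either to a single whole-body X-ray dose of 10 cGy (low-dose ionizing radiation, LDIR) or to sham treatment. In BALB/c, the strain the study treats as sensitive to radiation-induced breast cancer and which has reduced activity of the DNA repair kinase DNA-PKcs, LDIR and sham groups were collected 2, 4 and 8 weeks later. In SPRET/EiJ, the strain treated as resistant, both groups were collected at 4 weeks only. Each of the 8 groups had 3 arrays (A, B and C), which the study's methods call biological replicates, with 1 RNA sample on each array. The stage of the estrous cycle at collection is not given in the labels. SPRET/EiJ derives from another mouse species, Mus spretus, so that a sequence mismatch under a probe and a lower RNA level cannot be told apart between the strains.

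Estrogen acts on the gland through the estrogen receptor (Esr1) in a subset of luminal epithelial cells, and one of the genes it induces there is the progesterone receptor (Pgr). These hormone-sensing cells pass the signal on to their neighbours by secreted factors. Amphiregulin (Areg) is the estrogen-induced growth factor of ductal elongation, while Wnt4 and RANKL (Tnfsf11) act downstream of progesterone in side branching and the expansion of the alveolar cells.

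The promoters of Areg, Wnt4, Pgr and Greb1 are shown because these are the genes above background with at least 1 probe past the study's thresholds at 8 weeks after LDIR, each of them lower. RefSeq sequences were matched for all 8 genes by symbol, with 10 start sites in all. Each line gives the 250 bases before the start, 5′ to 3′ on the gene's strand (build GRCm38.p6), and capitals mark exact matches on either strand to the estrogen response element half-site (GGTCA), the cAMP response element (TGACGTCA), the TATA box (TATAAA) or the GC box (GGGCGG).
Areg, chr5:91139349-91139598, plus strand: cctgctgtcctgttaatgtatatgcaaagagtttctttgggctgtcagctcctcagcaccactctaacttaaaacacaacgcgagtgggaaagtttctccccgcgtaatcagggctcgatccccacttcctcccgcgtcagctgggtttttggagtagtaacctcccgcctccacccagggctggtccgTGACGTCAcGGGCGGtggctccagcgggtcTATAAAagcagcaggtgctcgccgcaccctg
Wnt4, chr4:137277385-137277634, plus strand: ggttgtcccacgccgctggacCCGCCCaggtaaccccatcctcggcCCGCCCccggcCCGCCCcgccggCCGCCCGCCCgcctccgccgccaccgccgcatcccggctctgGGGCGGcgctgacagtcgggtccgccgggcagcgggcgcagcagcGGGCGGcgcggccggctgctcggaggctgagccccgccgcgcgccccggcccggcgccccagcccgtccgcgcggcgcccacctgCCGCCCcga
Pgr, chr9:8899583-8899832, plus strand: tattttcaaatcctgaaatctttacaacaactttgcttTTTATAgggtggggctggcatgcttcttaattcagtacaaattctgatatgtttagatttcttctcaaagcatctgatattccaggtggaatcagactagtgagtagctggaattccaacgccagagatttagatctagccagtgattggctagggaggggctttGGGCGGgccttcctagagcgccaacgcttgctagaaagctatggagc
Greb1, first start site, chr12:16800887-16801136, minus strand: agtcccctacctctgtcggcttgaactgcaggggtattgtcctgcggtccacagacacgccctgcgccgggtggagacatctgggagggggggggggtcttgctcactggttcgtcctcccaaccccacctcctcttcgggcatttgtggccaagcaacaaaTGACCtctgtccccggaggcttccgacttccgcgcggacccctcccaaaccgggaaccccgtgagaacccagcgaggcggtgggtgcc

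The Areg window held a cAMP response element from -61 to -54 relative to the start, a motif found in 1.55% of 32851 promoter windows of the same length, and a TATA box from -31 to -26, found in 12.4%. Wnt4 held 8 matches to the GC box, of which the pair from -181 to -176 and from -177 to -172 overlap, and 32.7% of all windows held at least 1. Pgr held 1 GC box, from -47 to -42, and 1 TATA match, in reverse orientation and farther from the start, from -212 to -207. The first Greb1 window held 1 half-site, from -88 to -84, in reverse orientation, the second (not printed) held 2, from -194 to -190 and from -85 to -81, and 35.2% of all windows held this short motif. None of the 10 windows of the 8 genes held the full estrogen response element (GGTCA and TGACC, 3 bases apart), present in 0.0639% of windows, or the progesterone receptor element (GNACA and TGTNC, 3 bases apart), present in 0.387%. These are matches of letters in a short window and were not tested as sites.

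A level is given throughout as log2 of the probe's signal relative to the 75th percentile of its own array, so that 1 unit is a doubling. Where a gene had several probes, the brightest one over all arrays gives its level. In the mm9 coordinates of the array files, the brightest probes lie at chr10:5343056-5343115 (Esr1), chr9:8968492-8968551 (Pgr), chr12:16677448-16677507 (Greb1) and chr5:91570090-91570149 (Areg). Those of the other genes lie at chr4:136855342-136855401 (Wnt4), chr14:78677444-78677503 (Tnfsf11), chr7:121776948-121777007 (Calca) and chr13:27156972-27157031 (Prl). Esr1, Pgr, Greb1, Areg and Wnt4 were well above background on all 24 arrays. Calca was above it on 18, Tnfsf11 on 13 and Prl on 5.

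Between 57.1% and 72.6% of the probes of an array were well above background. Each listed epithelial, white adipocyte and milk protein gene was well above background on at least 1 array of the series. On 3 arrays (BALB/c sham A and LDIR B at 8 weeks, and SPRET/EiJ LDIR A) the mean level of 8 lymphocyte genes was 3.72, 3.99 and 3.54, against -2.78 to -1.09 on the other 21. The arrays lay on 3 slides. Slide 1 held all 2-week arrays and BALB/c sham A and B at 4 weeks. Slide 2 held the other 4-week BALB/c arrays, the 8-week sham group and LDIR A at 8 weeks, and slide 3 held LDIR B and C at 8 weeks and all SPRET/EiJ arrays.

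Areg, the epidermal growth factor receptor ligand, spanned the widest range among the genes detected on every array. In BALB/c sham glands the 2-week arrays read 4.62, 3.74 and 3.65, those of 4 weeks 4.08, 4.48 and 5.29, and those of 8 weeks 1.02, 2.59 and 2.76. The LDIR arrays read 5.07, 3.01 and 3.32, then 4.66, 1.83 and 4.47, and at 8 weeks -0.34, 0.15 and -0.13. The LDIR group at 8 weeks was thus the lowest of all 8 groups, and its 3 arrays lay below every other array. SPRET/EiJ glands gave 4.11, 1.31 and 3.10 in sham and 3.41, 4.35 and 2.55 after LDIR, 2 overlapping groups. In the order of group means, from 4.61 ± 0.62 (SD, n = 3) in BALB/c sham at 4 weeks down to -0.11 ± 0.25 in BALB/c LDIR at 8 weeks, only the last step, from the sham to the LDIR group at 8 weeks, separated neighbouring groups without overlap.

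**Figure D1:**
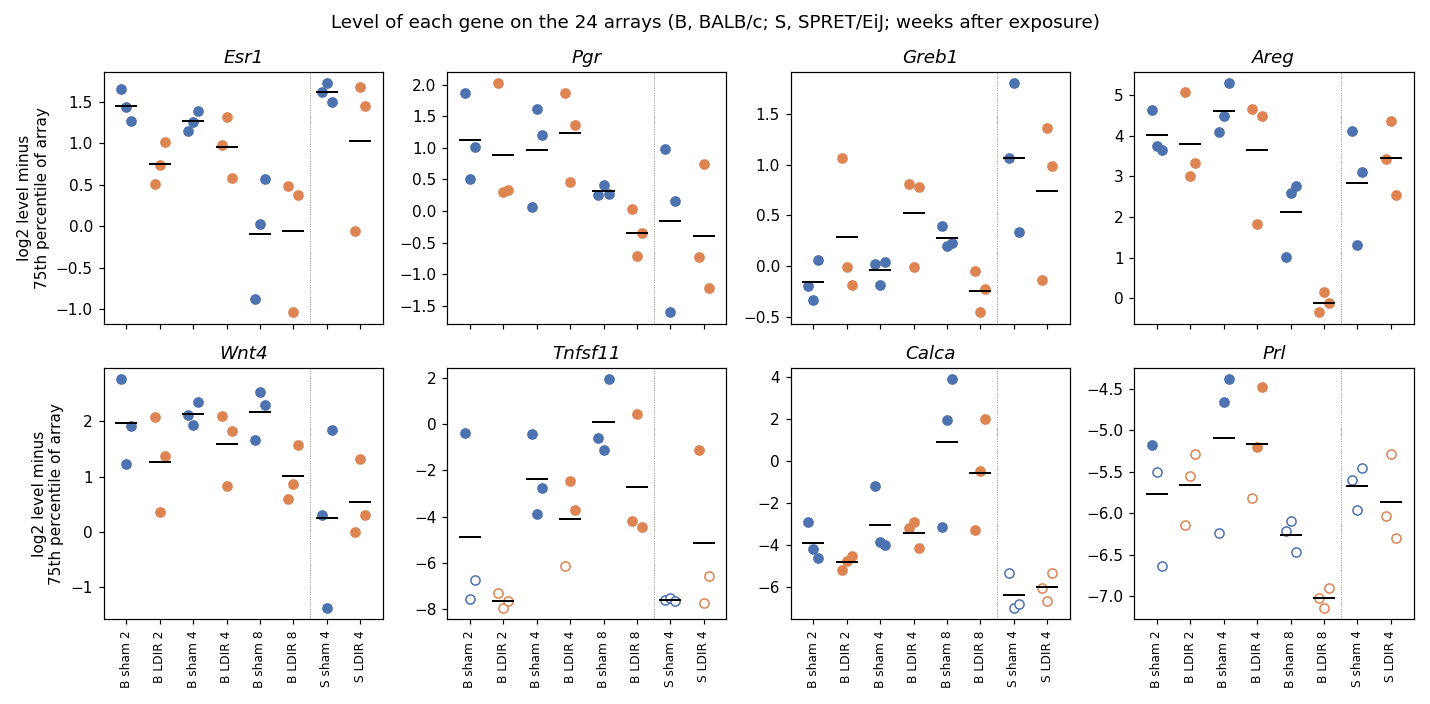
Log2 level of the brightest probe of each of the 8 genes on each of the 24 arrays, relative to the array's 75th percentile, by group, with a line at the group mean (n = 3). Open symbols mark levels not well above background. The 3 Areg arrays of BALB/c 8 weeks after LDIR lie between -0.34 and 0.15, below all other arrays, while most other neighbouring groups overlap.

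By its brightest probe Esr1, the nuclear receptor for estrogen, was highest in the sham groups of 2 and 4 weeks. By its other probes the SPRET/EiJ sham group was 7, 7 and 5 in the order of the 8 groups, and 1 of them put BALB/c LDIR at 2 weeks first. In BALB/c sham glands the levels read 1.66, 1.44 and 1.27 (2 weeks), 1.15, 1.26 and 1.40 (4 weeks) and -0.88, 0.02 and 0.57 (8 weeks). With LDIR they read 0.51, 0.74 and 1.02, then 0.98, 1.32 and 0.58, then 0.49, -1.04 and 0.38. SPRET/EiJ sham glands gave 1.63, 1.73 and 1.5, and LDIR glands -0.06, 1.69 and 1.45. On each of the 3 arrays rich in lymphocyte genes Esr1 was the lowest of its group (-0.88, -1.04 and -0.06). Their part in the levels was not tested, and in RNA from whole tissue fewer cells of a type and less RNA in each cell cannot be told apart.

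Pgr, the progesterone receptor, varied more within groups than between them. BALB/c sham levels were 1.87, 0.50 and 1.01 (2 weeks), 0.07, 1.61 and 1.21 (4 weeks) and 0.26, 0.41 and 0.27 (8 weeks). LDIR levels were 2.02, 0.31 and 0.34, then 1.86, 0.47 and 1.36, then 0.04, -0.71 and -0.34. SPRET/EiJ arrays ran from -1.60 to 0.98 in sham and from -1.21 to 0.75 after LDIR. No neighbouring groups in the order of Pgr means, from 1.23 ± 0.71 in BALB/c LDIR at 4 weeks to -0.40 ± 1.02 in SPRET/EiJ LDIR, were free of overlap.

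Wnt4, a secreted ligand that progesterone induces, and Greb1, an estrogen-induced cofactor of the estrogen receptor, differed in their order of groups. Wnt4 read 2.76, 1.24 and 1.91 (2 weeks), 2.12, 1.94 and 2.34 (4 weeks) and 1.66, 2.54 and 2.29 (8 weeks) in BALB/c sham glands, against 2.08, 0.37 and 1.37, then 2.10, 0.83 and 1.83, then 0.59, 0.87 and 1.57 after LDIR. Its SPRET/EiJ sham arrays were spread widely, at 0.30, -1.38 and 1.85. By its brightest probe Greb1 was highest in SPRET/EiJ, at 1.07, 1.80 and 0.34 in sham and -0.14, 1.36 and 0.99 after LDIR, whereas by its other probe the SPRET/EiJ groups, with means of -0.69 and -0.73, were 6 and 7 in the order of the 8 groups. By the brightest probe Greb1 stayed in BALB/c sham glands between -0.34 and 0.39 over the 3 times, and the LDIR groups ran from -0.18 to 1.07 at 2 weeks, from -0.01 to 0.81 at 4 weeks and from -0.46 to -0.05 at 8 weeks.

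Tnfsf11, the ligand through which progesterone drives proliferation of neighbouring cells, and Calca, which encodes calcitonin and its related peptide and which progesterone induces, were close to background on many arrays. Tnfsf11 was -0.58, -1.12 and 1.96 in BALB/c sham at 8 weeks, the highest group at 0.09 ± 1.64, and below background on all SPRET/EiJ sham and all BALB/c LDIR arrays at 2 weeks. At the other times single arrays stood above the rest, such as -0.36 beside -7.57 and -6.74 in BALB/c sham at 2 weeks. Of the arrays rich in lymphocyte genes, BALB/c LDIR B at 8 weeks (0.45) and SPRET/EiJ LDIR A (-1.11) had the highest Tnfsf11 of their groups. The lowest arrays of these groups read -4.43 and -7.75. BALB/c sham A at 8 weeks, at -0.58, was not the highest of its group. The part of the lymphocyte content in these Tnfsf11 levels was not tested. Calca reached -3.18, 1.94 and 3.88 in BALB/c sham and -3.29, -0.47 and 1.98 in BALB/c LDIR at 8 weeks, with no array of the earlier times above -1.23. All 6 SPRET/EiJ arrays were below background for Calca. Prl, which encodes the pituitary hormone prolactin, stayed between -7.14 and -4.38 and was below background on 19 of the 24 arrays.

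The first question was whether the levels in unexposed BALB/c glands changed with time. In a fit over all 24 arrays with 1 mean for each group, the F-test over the 3 sham groups had an adjusted p under 0.05 for 6.04% of all probes and for none of the 8 brightest member probes (limma, smallest adjusted p = 0.057 for Esr1; unadjusted p under 0.05 for 19.7% of all probes). One weaker Esr1 probe passed, with adjusted p = 0.033. Taken by pairs of times, which were compared after the data had been seen, Esr1 was lower at 8 than at 2 weeks by -1.55 (SE 0.43, limma adjusted p = 0.0377) and Calca higher by 4.82 (SE 1.36, adjusted p = 0.0394), where 6.62% of all probes passed. Without the 3 lymphocyte-rich arrays, also left out after seeing the data, the differences were -1.16 and 6.85. With slide as a block neither passed (adjusted p = 0.556 and 0.399), the 2-week and 8-week sham groups lying on different slides. By 2 of the other Esr1 probes the level was lower at 8 than at 2 weeks by only -0.45 and -0.39. Neither of these passed (limma adjusted p = 0.478 and 0.654). The third, which had passed the F-test, passed here too (limma adjusted p = 0.0430) but was below background on all 3 sham arrays at 8 weeks. Areg was lower at 8 than at 4 weeks by -2.49, with adjusted p = 0.0656, where 6.28% of all probes passed.

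The main question of the study was the effect of LDIR at each time. The thresholds of its methods, an unadjusted p under 0.05 and a change over 1.5-fold, were applied to limma's test of the 3 LDIR against the 3 sham arrays. No probe of the array had an adjusted p under 0.05 in any of the 4 LDIR comparisons, by limma or by the methods' t-test, and 1098 to 3440 probes had an unadjusted p under 0.05 by limma. In the fit of all 24 arrays with slide as a block, 22 probes had an adjusted p under 0.05 at 8 weeks and 5 at 4 weeks in BALB/c, none of them the brightest probe of 1 of the 8 genes. The calls below are unadjusted and are to be read against the share of all probes called.

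At 8 weeks in BALB/c, 3 of the 8 genes were called, all lower after LDIR, against 1.92% of all probes in either direction and 1.75% in the lower one. Areg differed by -2.23 (SE 0.51), a 4.70-fold lower level, and Wnt4 by -1.15 (SE 0.38), a 2.22-fold lower level (limma adjusted p = 1.00 for both). The third, Prl, was below background on all 6 arrays, so no fold is given. In 5 of the 8 genes (Areg, Wnt4, Pgr, Greb1 and Prl) every LDIR array lay below every sham array, where 4.05% of all probes did so. The estimate was lower for 7 of the 8, with a median of -0.96 against -0.14 over all probes. The array as a whole was shifted the same way, since 974 of the 1068 probes called were lower. That shift depended on sham A, the sham array rich in lymphocyte genes: without it the median of all probes was -0.01 with 578 higher and 919 lower calls, and without LDIR B as well it was -0.01 with 1262 higher and 1161 lower. Sham A also stood apart in the mean background-subtracted signal of its negative-control spots. This was -13.83, where the other arrays ran from -4.62 to -2.09. The part of either feature in the shift was not tested. With quantile normalization the median of all probes was 0.01 and the calls were 464 higher and 464 lower, while Areg differed by -2.25 and Wnt4 by -1.18 and Prl, at -0.10, was no longer called. The study named Areg, Wnt4, Pgr and Prl from these same arrays, so their direction here is not independent evidence.

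The calls of Pgr and Greb1 depended on the probe. The brightest Pgr probe differed by -0.65 (SE 0.27) and missed the p threshold, although it passed with normexp, quantile normalization, the methods' t-test or detected probes only, whereas both other Pgr probes passed, at -1.02 (SE 0.28) and -1.04 (SE 0.29). Greb1 gave -0.51 (SE 0.23) by its brightest probe, which did not pass, and -1.81 (SE 0.36) by the other, a 3.51-fold lower level that did (limma adjusted p = 1.00 for all of these). Counted by probes, 6 of the 16 passed at 8 weeks. Esr1 did not pass by any of its 4 probes, and its brightest differed by 0.04 (SE 0.57). Tnfsf11 differed by -2.80 (SE 1.53) and Calca by -1.47 (SE 2.14), neither past the threshold.

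The lymphocyte, slide and epithelial settings used next were added after seeing the data. Areg kept its call with each array left out in turn (-2.78 to -1.91). Wnt4 lost it without sham B, sham C, LDIR A or LDIR B (-1.09 to -0.94). Without sham A and LDIR B, the 8-week arrays rich in lymphocyte genes, Areg differed by -2.91, Wnt4 by -1.33 and Tnfsf11 by -4.72, and 4 genes were called. With slide as a block, a fit in which LDIR A carries the comparison within slide 2, Areg differed by -2.47, Wnt4 by -1.57 and Pgr by -0.27. The mean of 11 epithelial genes was 2.47, 4.09 and 3.89 in sham and 3.55, 2.52 and 3.97 after LDIR, overlapping, with 0 of 11 past the thresholds. With that mean subtracted from each array, Areg differed by -2.09 and was still called, and Wnt4 by -1.02 and was not.

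**Figure D2:**
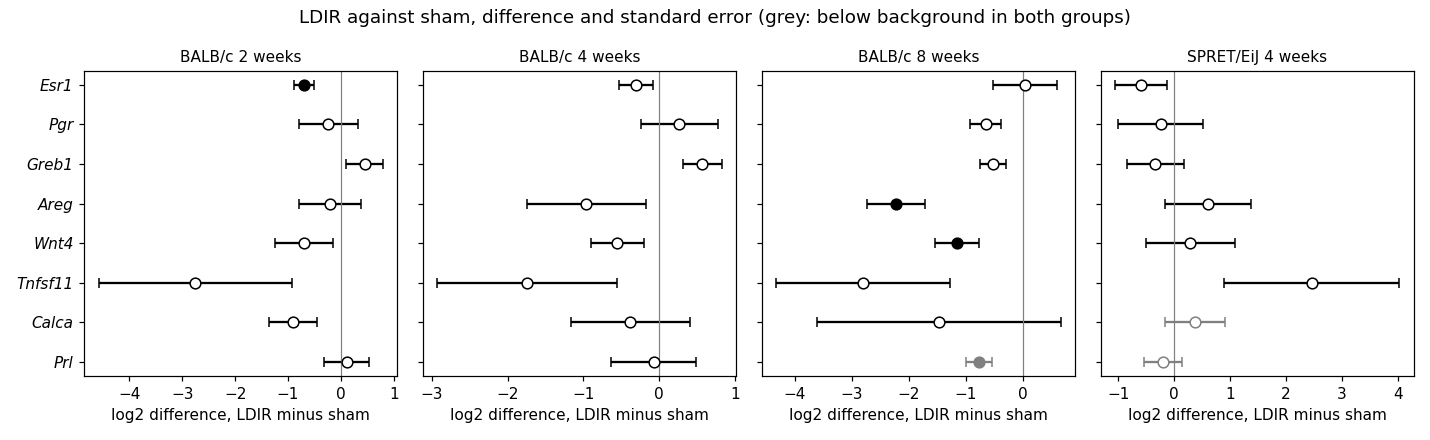
Log2 difference, LDIR minus sham, of the brightest probe of each gene with its standard error (limma, n = 3 against 3) in the 4 comparisons, each panel with its own scale. Filled points passed the thresholds and grey points were below background in both groups; at 8 weeks Areg (-2.23) and Wnt4 (-1.15) are filled, and Esr1 (0.04) lies at 0.

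At 2 weeks 1 of the 8 genes was called, Esr1, against 3.05% of all probes, and 0.968% in the lower direction. It was 1.63-fold lower after LDIR, with a difference of -0.70 (SE 0.19, limma adjusted p = 0.869), and its groups did not overlap, as was so in this direction for 6.38% of all probes. Without LDIR A the change was -0.58, under the fold threshold, and over the mean of the detected Esr1 probes it was -0.30 and was not called. In the fit of all 24 arrays the call was lost too. Of the 16 probes only the brightest Esr1 probe was called. The means of the other Esr1 probes after LDIR and in sham were -2.12 and -1.92, -3.51 and -3.09, and -3.53 and -3.66. The last of these was thus higher after LDIR. Areg, at -0.21 (SE 0.58), and Pgr, at -0.24 (SE 0.57), did not pass.

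At 4 weeks none of the 8 genes was called by its brightest probe in BALB/c, where 4.83% of all probes were, and none was with slide as a block. Areg differed by -0.96 (SE 0.79) and Greb1 by 0.57 (SE 0.26), the latter with overlapping groups. Of all 16 probes, 1 weaker Esr1 probe passed, at -0.76 (SE 0.22). In SPRET/EiJ none was called against 2.21%, and Areg differed by 0.60 (SE 0.77). LDIR changes were also compared with each other. None of the 8 genes had an adjusted p under 0.05 for 8 against 4 weeks, for 8 against 2 weeks or for BALB/c against SPRET/EiJ, and neither had any probe of the array in these fits, where 6.44%, 3.80% and 3.35% had an unadjusted p under 0.05. With slide as a block 8, 9 and 4 probes had an adjusted p under 0.05, none of them the brightest probe of 1 of the 8 genes. The Areg change at 8 weeks lay -2.02 (SE 1.1) below that at 2 weeks and -1.27 (SE 1.1) below that at 4 weeks, so a difference between times was not shown.

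Between the strains, sham glands at 4 weeks were compared at the methods' stricter unadjusted p under 0.001, using the same sham arrays as above. Of the 8 genes 1 passed, Tnfsf11, against 8.89% of all probes. It was measured on 3 BALB/c arrays (-0.43, -3.89 and -2.78) and below background on all 3 SPRET/EiJ arrays, at least 8.02-fold higher in BALB/c (limma adjusted p = 0.00761). The bound takes the lowest signal well above background as the SPRET/EiJ level. The call was lost without BALB/c sham C or any 1 SPRET/EiJ array, and with normexp, quantile normalization or the methods' t-test. It was also not made against the BALB/c sham group of 2 weeks, where Tnfsf11 was above background on 1 of the 3 arrays. Calca was higher in BALB/c by at least 4.95-fold, with adjusted p = 0.0398, and did not pass 0.001. These 2 genes were the members with an adjusted p under 0.05, against 18.8% of all probes. In 5 genes the strains did not overlap, 3 of them higher and 2 lower (Greb1 and Esr1) in BALB/c, where 17.7% and 20.3% of all probes did so. Greb1 differed by -1.11 (SE 0.37) and Esr1 by -0.35 (SE 0.16), while Areg, at 1.78 (SE 0.72), overlapped. The direction of Greb1 and Esr1 turned with the probe, since the other Greb1 probe differed by 0.36 (SE 0.97) and the 3 other Esr1 probes by 0.79 (SE 0.37), 0.82 (SE 0.20) and 1.14 (SE 0.33). Of these 6 arrays, those of SPRET/EiJ lay on slide 3 and those of BALB/c on slides 1 and 2, and in the fit of all 24 arrays with slide as a block Tnfsf11 was not called. The mean of the 11 epithelial genes also differed, at 2.42, 3.19 and 3.07 in BALB/c and 1.89, 0.05 and 2.11 in SPRET/EiJ, without overlap. Relative to that mean, Areg was 1.65, 1.29 and 2.22 against 2.22, 1.25 and 0.98. Tnfsf11 was then -2.85, -7.08 and -5.85 against -9.52, -7.59 and -9.78. The part of the epithelial content in the strain differences was not tested.

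Because the labels give no estrous stage, the arrays of a group were also compared with each other. The deviation of each array from its group mean was correlated over 24 arrays for the 28 pairs of genes, with p from permutation and Benjamini-Hochberg adjustment over the pairs. Pgr and Areg varied together most closely, with r = 0.81 (permutation p = 0.00044, adjusted p = 0.0123) and rho = 0.81 (adjusted p = 0.0106). Without the 2 arrays farthest on Pgr r was 0.76, it was 0.71 in the 18 BALB/c and 0.98 in the 6 SPRET/EiJ arrays, and it was 0.87, 0.77 and 0.95 on slides 1, 2 and 3. Areg and Wnt4 gave r = 0.71 (adjusted p = 0.0741) and rho = 0.73 (adjusted p = 0.0253), and Pgr and Wnt4 r = 0.68 (adjusted p = 0.146) and rho = 0.69 (adjusted p = 0.047), so these pairs passed by rank only. With Areg, r was 0.00 for Esr1 and 0.21 for Greb1. The values of Greb1 differed between the strains: with Pgr, Areg and Wnt4 r was 0.69, 0.64 and 0.55 in the BALB/c arrays and -0.14, -0.26 and -0.39 in those of SPRET/EiJ, a difference that was not tested.

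**Figure D3:**
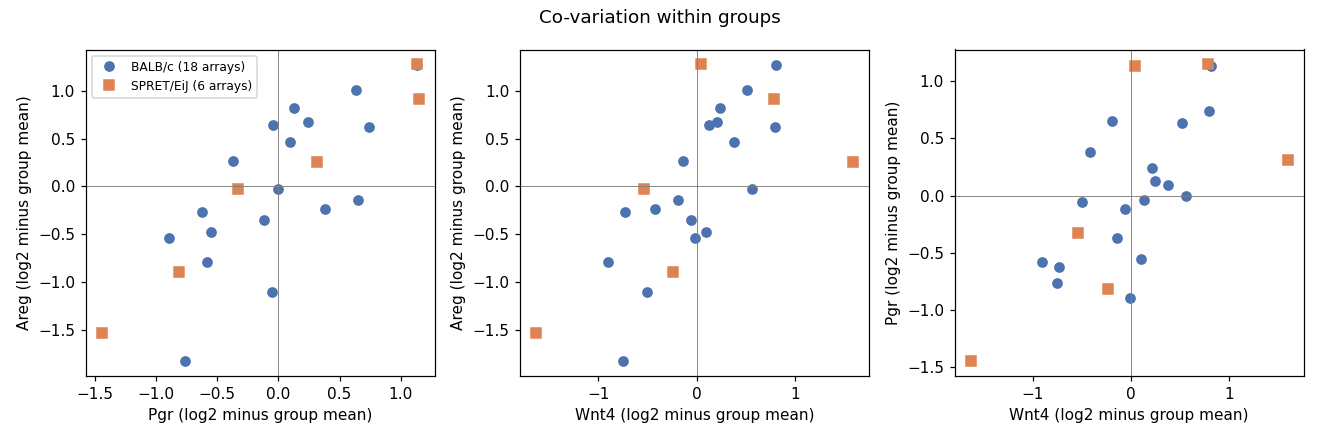
Deviations from the group mean (log2) of Areg against Pgr, Areg against Wnt4 and Pgr against Wnt4, 1 point for each of the 24 arrays, by strain. Arrays with low Pgr also have low Areg (r = 0.81), while the Wnt4 panels scatter more (r = 0.71 and 0.68).

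The same deviations were compared with marker lists, 32 relations in all. The mean of the 11 epithelial genes correlated with Wnt4 (r = 0.83, permutation adjusted p = 0.00256), Pgr (r = 0.76, adjusted p = 0.0032) and Areg (r = 0.75, adjusted p = 0.0172), and no other relation passed. With the epithelial mean regressed out, a step chosen after seeing the data, Pgr and Areg gave r = 0.56 (adjusted p = 0.247), Areg and Wnt4 0.23 and Pgr and Wnt4 0.14. The part of cycle stage, which the labels do not give, in this shared variation was not tested. The 3 arrays rich in lymphocyte genes form a cluster of their own, so no pooled correlation with that list is given. Without them, 6 relations passed: Wnt4 (r = -0.82), Areg (r = -0.79) and Pgr (r = -0.76) were then also inversely related to 7 white adipocyte genes. Esr1 and the adipocyte genes gave r = 0.84 with those arrays and 0.14 without, so that relation rests on them.

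**Figure D4:**
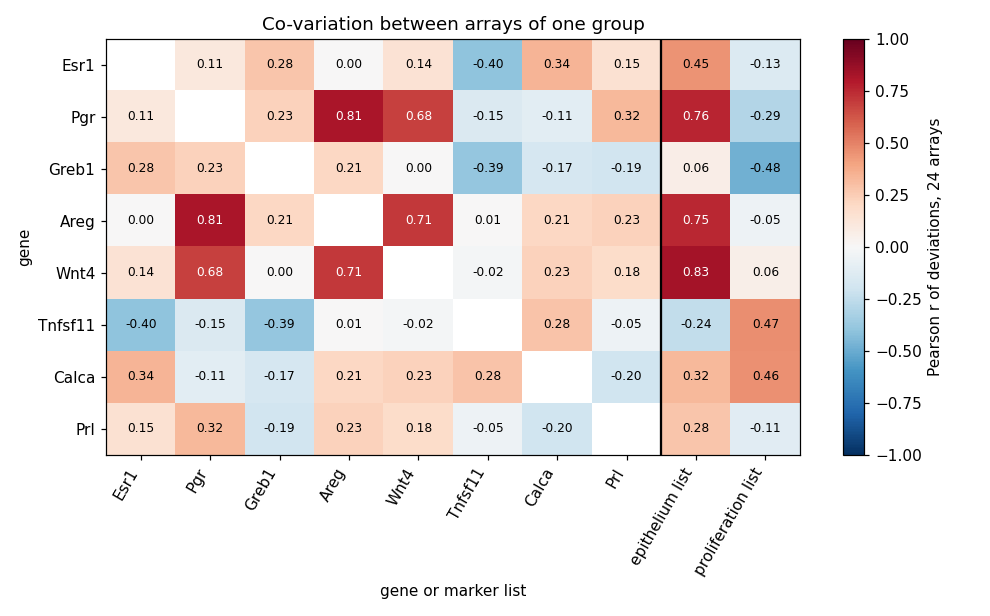
Pearson r of the deviations from group means over 24 arrays, for the 8 genes with each other and with the epithelial and proliferation lists. The block of Pgr, Areg and Wnt4 (0.68 to 0.81) and their values with the epithelial list (0.75 to 0.83) stand out.

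**Figure D5:**
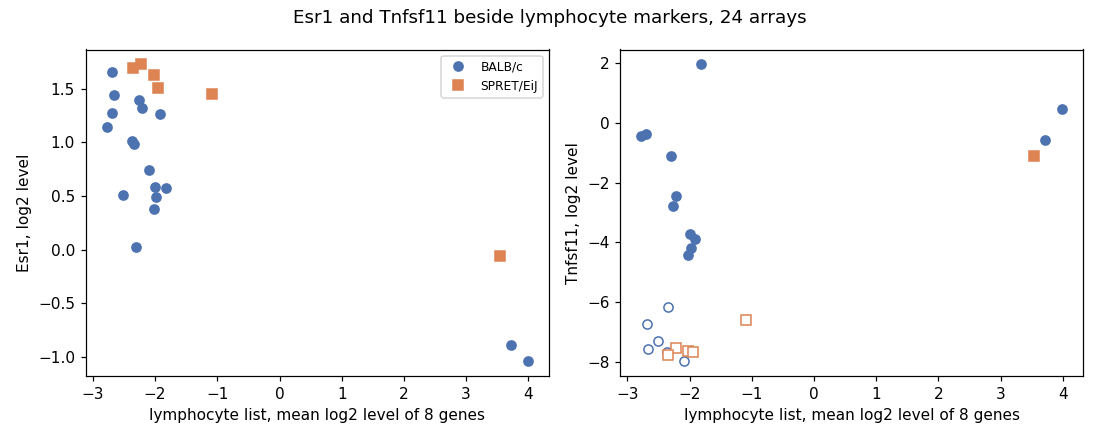
Log2 level of Esr1 (left) and Tnfsf11 (right) against the mean log2 level of 8 lymphocyte genes on the 24 arrays, by strain, with open symbols for levels below background. The 3 arrays at 3.54 to 3.99 on the horizontal axis have Esr1 levels of -0.06 or lower. Among them, BALB/c LDIR B at 8 weeks (0.45) and SPRET/EiJ LDIR A (-1.11) have the highest Tnfsf11 of their groups, and BALB/c sham A at 8 weeks does not.

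How closely the probes of one gene agreed within groups bears on how far a single probe can be read. Differences between groups are left out here, and between the strains the probes of Greb1 and of Esr1 differed in direction. Deviations from group means were correlated over the 24 arrays between the brightest probe and the others. This gave r = 0.97 and 0.91 for Pgr and 0.97 for Wnt4. For Greb1 it was 0.66 and for Calca 0.64. The 3 other Esr1 probes gave 0.88, 0.76 and 0.45, the last well above background on 18 arrays. Areg, Tnfsf11 and Prl had 1 probe each.

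Of 20673 other genes, those most like Pgr in their deviations were Tmem125 (r = 0.93), the luminal keratin Krt7 (r = 0.92) and Krt81 (r = 0.89). Wnt4 was most like Lad1 (r = 0.93), Prr15l (r = 0.91) and Gm2568 (r = 0.90), and Lad1 was also among the 3 most like Areg (r = 0.83). Those for Esr1 were Ppp1r9a (r = 0.95), Sipa1l2 (r = 0.94) and the transcription factor Nfib (r = 0.94). For Greb1 the highest was Hist2h3c2-ps (r = 0.84), for Tnfsf11 Gm9222 (r = 0.79) and for Calca Slc29a2 (r = 0.85). These are the highest of many correlations over the same 24 arrays and carry no p. They were not computed again without the 3 arrays rich in lymphocyte genes, on which Esr1 deviated from its group means by -0.79, -0.98 and -1.09.

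Around the 8 genes, 47 further genes of the pathway were read from lists of 14 hormone receptors and cofactors, 12 partners of the paracrine signals and 21 steroid and prolactin response genes. At 8 weeks 1 of the 47 passed, against 1.92% of all probes. It was Fkbp5, a chaperone cofactor induced by progesterone and glucocorticoids. Its level was 4.10, 3.91 and 4.10 in sham and 1.78, 2.76 and 2.01 after LDIR, a difference of -1.86 (SE 0.32, limma adjusted p = 1.00). The sham group was the one that stood apart, since all other groups lay between 1.55 and 3.13. At 4 weeks 3 of the 47 passed, against 4.83% of all probes, and at 2 weeks 2, against 3.05%. At 4 weeks Cited1, a cofactor of the estrogen receptor, was lower by -1.38 and Cish, a target of prolactin signalling through STAT5, by -1.11 after LDIR (limma adjusted p = 0.775 for both). Id4, a regulator of luminal differentiation, was lower by -0.61 at 2 weeks. Agr2 at 2 weeks and Calcr at 4 weeks also passed but were below background in both groups, and none of the 47 passed in SPRET/EiJ, where 2.21% of all probes did. The medians of the 3 lists at 8 weeks were 0.16, -0.11 and -0.08 beside -0.14 over all probes. In the strain comparison 4 of the 47 passed, against 8.89% of all probes. Tbx3 was higher in BALB/c by 2.38, and Cxcl12, Igfbp4 and Pdzk1 were lower by -1.19, -1.33 and -2.0 (limma adjusted p = 0.00355 to 0.0102).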

How the data were processed

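Total RNA of 24 mammary glands was hybridised by the study to 1-colour Agilent 8x60K arrays (3 slides). The deposited scanner files hold the processed signal intensity of each spot, background-subtracted by Agilent Feature Extraction, and the authors' deposited log2 values were scaled to the 75th percentile in GeneSpring. Here log2 of the processed intensity minus each array's 75th percentile was used, outlier spots (3777) and control spots were left out, and spots of a probe averaged. Groups came from the labels. Tests were limma 3.58.1 in R 4.3.3 (lmFit, eBayes) on the 6 arrays compared, or on all 24 for sham weeks and contrasts of LDIR changes, with Benjamini-Hochberg adjustment over all probes. The thresholds were those of the methods (unadjusted p under 0.05, or 0.001 between strains, and over 1.5-fold). A probe well above background on no array of a group gives only a bound, and no fold where this holds in both groups compared. Named genes were the 8 members, list genes past the thresholds and the 3 genes most alike; the members and lists were chosen with earlier results of these data known. Correlations and permutation p used Python 3.11.15, numpy 2.4.6 and scipy 1.17.1. Promoters are from RefSeq (GRCm38.p6). On simulated data, 77% of changes of 1 log2 unit and 97% of 2 were recovered at 8 weeks. These changes were placed only in probes well above background on all 6 arrays, with noise independent between probes. In that simulation 5.01% of the unchanged probes were called. It had no slide effect or lymphocyte-rich arrays, so its shares do not carry over to the 8 genes. The number of arrays limits the precision.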

Additional observations from a re-analysis of the deposited data

How the results depend on the processing

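At 8 weeks the count of 3 genes called became 1 in the fit of all 24 arrays and 1 with the epithelial mean subtracted (chosen after seeing the data), and ran from 1 to 3 with each array left out. It was 2 with the replicate block and with slide as a block, in 6 or 24 arrays, 4 with the methods' t-test, the mean of detected probes or both lymphocyte-rich arrays left out, and 3 with the other settings. At 2 weeks the count of 1 became 2 with normexp and 2 with the replicate block (Wnt4 added), and 0 in both 24-array fits, with and without slide as a block, and with the mean of detected probes; leaving out arrays gave 0 to 2. The counts of 0 at 4 weeks ran from 0 to 1 in BALB/c and from 0 to 1 in SPRET/EiJ with arrays left out. Between strains the count of 1 became 0 with normexp, quantile normalization, the methods' t-test, both 24-array fits, the BALB/c sham group of 2 weeks and all 9 BALB/c sham arrays, and ran from 0 to 1 with arrays left out. The replicate letters did not pair the samples, since not every same-letter correlation passed 0.1 in any comparison (0.0129, 0.14 and -0.0312 at 2 weeks). With the letter as a block Tnfsf11 lost and Calca gained its strain call, and Prl lost its call at 8 weeks; beside these and Wnt4 at 2 weeks it changed no call among the 8 genes. The F-test over sham weeks called 0 genes, 1 with normexp, 1 with quantile normalization and 2 without the 3 lymphocyte-rich arrays (chosen after). The 2 genes that differed between 8 and 2 weeks became 1 with quantile normalization and 0 with slide as a block.

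Of the pairs that varied together, 1 passed; 3 passed by rank, 0 with the epithelial mean regressed out, and 1 to 3 with arrays left out. Relations with lists went from 3 to 6 without the 3 arrays. No called difference changed sign. A change of sign was counted 38 times over all genes, comparisons and settings, each time for an estimate that had not passed. The same estimate could be counted under several settings. With the mean of detected probes, Pgr was 0.146 at 2 weeks and 0.0179 in SPRET/EiJ, Esr1 -0.0865 at 8 weeks and 0.599 between strains. With slide as a block Calca was 0.610 at 4 weeks, in the fit of 24 and that of 6 arrays. With normexp Prl was -0.0109 at 2 weeks and Calca -0.0264 in SPRET/EiJ. Against SPRET/EiJ sham, Prl was -0.0963 with the BALB/c 2-week group, -0.586 with that of 8 weeks and -0.034 with all 9 arrays, and Areg -0.714 with that of 8 weeks. With each array left out, the range at 2 weeks was -0.802 to 0.135 for Pgr, -0.844 to 0.188 for Areg and -0.320 to 0.411 for Prl. At 4 weeks it was -0.179 to 0.651 for Pgr, -0.874 to 0.535 for Calca and -0.645 to 0.281 for Prl. At 8 weeks it was -0.355 to 0.528 for Esr1 and -3.50 to 0.0265 for Calca. In SPRET/EiJ it was -0.965 to 0.323 for Pgr, -0.698 to 0.105 for Greb1, -0.167 to 1.24 for Areg, -0.527 to 1.09 for Wnt4 and -0.489 to 0.0155 for Prl. The cause of these shifts was not tested. With 3 arrays in a group, and Prl, Tnfsf11 and Calca near background on many arrays, small changes in these genes could not be resolved.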
